A study of Mus musculus with 16 samples.

Results

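Liver RNA was measured for the genes that build and dress plasma lipoproteins: the apolipoprotein genes *Apoa1*, *Apoa2*, *Apoa4*, *Apoa5*, *Apob*, *Apoc2*, *Apoc3*, *Apoe* and *Apom*, with *Mttp*, which loads lipid onto apolipoprotein B. They were taken by symbol from a table of estimated counts, with earlier results of these data known, and make up 10 of its 52143 genes. The 16 mice were male, of strain C57BL/6J, 6 weeks old at the start, and ate chow (Mouse Diet 9F) or a high-fat diet (HFD, D12492, with 60% of its energy from fat) for 12 weeks. Every 2 weeks they received a subcutaneous injection, of 0.9% saline or of an siRNA (3 mg/kg) that targets *Fgfr4*, the hepatocyte receptor for the gut hormone FGF15, coupled to N-acetylgalactosamine for uptake by hepatocytes. The groups of 4 mice were Chow and HFD (saline), and Chow/FGFR4 KD and HFD/FGFR4 KD (knockdown, KD). No mouse received a siRNA without a target, so an effect of the siRNA itself and the loss of FGFR4 cannot be told apart. Replicates of a group were taken as separate mice, housed 4 to a cage, and which of them shared a cage was not given. All values come from whole liver, where fewer cells of a type and less RNA per cell cannot be told apart.

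Lipoproteins carry triglyceride and cholesterol through blood in a shell of phospholipid and apolipoproteins. In hepatocytes, microsomal triglyceride transfer protein (*Mttp*) lipidates apolipoprotein B (*Apob*), the non-exchangeable backbone of very low density lipoprotein (VLDL), and the particle is then secreted. On circulating particles, apolipoprotein C-II activates lipoprotein lipase, C-III inhibits it, A-V promotes it, and apolipoprotein E is the ligand through which the liver takes up remnants. Apolipoproteins A-I and A-II form the main protein of high density lipoprotein (HDL), and apolipoprotein M carries sphingosine-1-phosphate on it. Apolipoprotein A-IV is best known from enterocytes, and in mouse liver its RNA is known to rise with hepatic fat.

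In GRCm38, *Apoa1* (chromosome 9, 46228580 to 46230466), *Apoc3* (46232933 to 46235636), *Apoa4* (46240696 to 46243459) and *Apoa5* (46268633 to 46271919) lie side by side within 43.3 kb. *Apoc2* (chromosome 7, 19671579 to 19677941) and *Apoe* (19696109 to 19699188) are neighbours at a distance of 18.2 kb, and the other 4 genes lie on chromosomes of their own: *Apoa2* on 1, *Mttp* on 3, *Apob* on 12 and *Apom* on 17. The sequence before the start site is shown for the 3 genes that were higher on HFD with and without KD, and for *Apoa5*, which shares the cluster with *Apoa4* and was not called in any comparison. Each stretch runs 5′ to 3′ along the gene and was trimmed so that it holds no annotated exon of a protein-coding gene (RefSeq windows, GRCm38.p6): *Apoa4* chr9:46240594-46240695, plus strand, *Apoa5* chr9:46268358-46268607, plus strand, *Apoc2* chr7:19677942-19678082, minus strand, and *Apoe* chr7:19699189-19699438, minus strand. Capitals mark matches to 6 short motifs searched on both strands: CAAAGTCCA (the HNF4 core), AGGTCA (bound by nuclear receptors), TGACG (bound by CREB-like factors), CACGTG (an E-box), TATAAA (the TATA box) and CCAAT.
Apoa4: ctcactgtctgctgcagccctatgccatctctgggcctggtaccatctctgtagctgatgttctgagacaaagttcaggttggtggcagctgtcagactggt
Apoa5: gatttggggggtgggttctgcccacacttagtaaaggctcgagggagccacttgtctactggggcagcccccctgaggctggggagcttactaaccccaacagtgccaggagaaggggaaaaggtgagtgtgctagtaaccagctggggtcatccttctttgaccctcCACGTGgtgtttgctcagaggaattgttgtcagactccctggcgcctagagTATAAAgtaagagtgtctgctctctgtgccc
Apoc2: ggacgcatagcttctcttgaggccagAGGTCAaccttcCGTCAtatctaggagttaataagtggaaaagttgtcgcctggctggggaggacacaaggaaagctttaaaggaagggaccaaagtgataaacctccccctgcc
Apoe: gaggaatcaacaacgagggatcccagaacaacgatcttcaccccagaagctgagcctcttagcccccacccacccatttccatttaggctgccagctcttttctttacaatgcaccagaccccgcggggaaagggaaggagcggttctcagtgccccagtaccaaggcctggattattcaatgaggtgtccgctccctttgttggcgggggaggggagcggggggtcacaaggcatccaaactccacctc

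The *Apoc2* stretch held AGGTCA 115 bases and TGACG, on the reverse strand, 103 bases before the RefSeq start, without overlap. The *Apoa5* stretch held CACGTG 82 bases and TATAAA 31 bases before it, and neither the *Apoa4* nor the *Apoe* stretch held any of the 6 motifs. Among 32851 RefSeq windows of 300 bases (250 before and 50 after a start), AGGTCA occurred in 16.3%, TGACG in 20.8%, CACGTG in 7.15%, TATAAA in 13.6%, CCAAT in 37.4% and CAAAGTCCA in 0.47%. These shares are for windows longer than the stretches shown, and the matches are a description of letters. The RefSeq start of *Apoa4* lies 148 bases after the first start in GENCODE, so only 102 bases remained before both. Of the 10 genes, 9 had a RefSeq window, and *Apoc3* had none.

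Total counts were 3445949 to 5976449 per library, the 10 genes took 2.09% to 3.57% of them, and all 10 passed the filter on low expressed genes that left 11324 genes. Fewest counts were seen for *Apoc2*, from 92.8 to 1189 in a library, and most for *Apoe*, up to 93096. The tissue label was checked against 8 hepatocyte markers, whose summed level was 69961 to 89301 CPM (counts scaled to library size with TMM factors), and the siRNA target *Fgfr4* was at 2.43 to 6.17 CPM in the 8 KD libraries and 21.8 to 36.3 CPM in the 8 saline libraries. Of the libraries, 2 each stood apart from the other 15 in markers: Chow/FGFR4 KD 4 had 2378 CPM of the acute-phase gene *Saa2* against at most 118, and Chow 3 had 13.2 CPM of the gut gene *Vil1* against at most 1.66. HFD/FGFR4 KD 1 stood apart only within its group, with 22.3% of its counts in the single gene Gm42418 against 13.7% to 16.2%. Chow 2 (22.2%), Chow 4 (22.7%) and Chow/FGFR4 KD 4 (20.6%) were at similar shares. Over 7405 genes, HFD/FGFR4 KD 1 differed from its group by a chi-square per degree of freedom of 48.0 to 72.6. Pairs of the other libraries in that group were at 7.59 to 16.6. HFD 2 differed from HFD 1 and HFD 3 by 56.5 and 58.9. A call needed both a limma-voom p under 0.05 and, after Benjamini-Hochberg adjustment over all genes, a value under 0.25. In this order, values of 4 libraries stand for replicates 1 to 4 of a group.

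Because reads per gene grow with transcript length, levels of different genes are compared per kb of the longest coding transcript. In Chow the order by mean CPM per kb was *Apoe* (7296), *Apoa2* (6280.3), *Apoa1* (5262), *Apoc3* (1159), *Apob* (443), *Apoa5* (300.5), *Apom* (121), *Mttp* (74.8), *Apoc2* (63.8) and *Apoa4* (37.3). Neighbours in this order whose 4 libraries overlapped were *Apoe* with *Apoa2*, *Apoa2* with *Apoa1*, *Apob* with *Apoa5*, *Mttp* with *Apoc2*, and *Apoc2* with *Apoa4*; the other neighbours were apart. On HFD *Apoa4* moved from the tenth place to the fifth, with a mean of 826 and a range of 229.9 to 1636 CPM per kb, and *Apom* moved from the seventh to the tenth, at 61.1. The range of *Apoa4* on HFD overlapped those of *Apob* (331 to 431), *Apoa5* (308 to 367), *Apoc2* (94.01 to 251) and *Apoc3* (1179 to 1368), so its place there was not fixed by its libraries. In HFD/FGFR4 KD it was the sixth, at 356 CPM per kb. These levels assume that reads cover a transcript evenly, which was not tested.

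**Figure D1:**
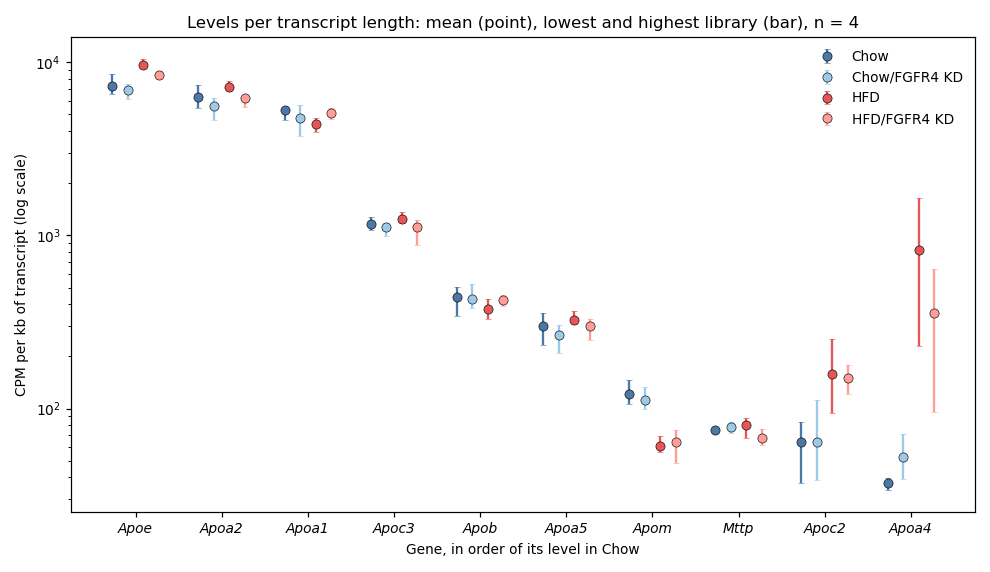
Mean CPM per kb of transcript (log scale) of the 10 genes in the 4 groups, ordered by their level in Chow, with bars from the lowest to the highest of 4 libraries. *Apoe*, *Apoa2* and *Apoa1* lie at the top in all groups, and *Apoa4* goes from 37.3 in Chow to 826 on HFD.

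The question of the diet comparison is which of these genes differed between HFD and chow livers of saline mice. Of the 10 genes, 5 were called, 3 higher (*Apoa4*, *Apoc2* and *Apoe*) and 2 lower (*Apom* and *Apoa1*), where 26% of all tested genes were called, 13.3% higher and 12.7% lower. In 4 of them the HFD and Chow libraries did not overlap, as in 16.1% of all tested genes, and *Apoa1* overlapped. The median log2 change of the 10 genes was 0.12, beside 0.01 over all genes, and the median size without regard to sign was 0.24 beside 0.22. *Apob*, *Mttp*, *Apoa2*, *Apoa5* and *Apoc3*, which include the VLDL backbone and its lipid loader, were not called.

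*Apoa4*, the apolipoprotein of chylomicrons and HDL, had the largest change of the 10. Its level in CPM was 66.8, 61.3, 71.8 and 70.5 in Chow and 1699.6, 417, 2970.0 and 908 CPM in HFD. All HFD libraries lay above all Chow libraries, but they differed among themselves by 7.12-fold, with HFD 3 highest and HFD 2 lowest, while Chow libraries differed by 1.17-fold. The coefficient of variation was 6.97% in Chow and 74.3% on HFD (n = 4 each). The log2 change was 4.12 (SE 0.535, 95% interval 2.99 to 5.25, adjusted p 0.000498) in limma-voom, or 17.3-fold with an interval of 7.92 to 37.9, and it ranked 16 by p among the 11324 genes. Leaving out each library in turn gave 3.67 to 4.61 with adjusted p of at most 0.00238.

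Counted against *Apoa1* of the same library, which needs no scaling, *Apoa4* reads were 1.39, 1.08, 1.27 and 1.25 per 100 reads of *Apoa1* in Chow. On HFD they were 37.8, 8.73, 60.4 and 22.2 per 100. The KD groups had 1.85, 1.22, 1.74 and 3.33 on chow and 3.18, 22.7, 10.7 and 13.5 on HFD. Antisense genes Gm47528 and Gm10680 share 64.5% of the 31-base words of *Apoa4*, and the strand setting of the counting was not given; of the summed reads of *Apoa4* and Gm10680, at least 98.9% were given to *Apoa4* in every library. The lowest HFD library was thus above every chow library, and HFD/FGFR4 KD 1, at 3.18, lay below Chow/FGFR4 KD 4, at 3.33.

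Because *Apoa4* is known from gut, 7 enterocyte markers were read beside it. On HFD, with and without KD, *Sis*, *Alpi*, *Cdx1* and *Cdx2* were at 0 in all 8 libraries and *Vil1* and *Lct* had at most 1 count. *Fabp2*, which hepatocytes also express, was the only marker that passed the filter, and it rose with HFD by 1.47 on the log2 scale (adjusted p 0.00488). The summed level of the 7 was 29.999 to 122 CPM in Chow, 28.9 to 65.6 in Chow/FGFR4 KD, 121 to 163 in HFD and 83.9 to 125 in HFD/FGFR4 KD. In Chow 3, the library with *Vil1* and *Sis* (8.52 CPM), *Apoa4* was at 71.8 CPM, next to 70.5 in Chow 4.

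*Apoc2*, the activator of lipoprotein lipase, was higher on HFD. It had 51.05, 27.05, 60.8 and 46.7 CPM in Chow and 133, 73.9, 182 and 68.3 CPM in HFD. The highest Chow library lay just below the lowest HFD library, and the log2 change was 1.23 (SE 0.338, 95% interval 0.51 to 1.94, adjusted p 0.031). Of the 31-base words in *Apoc2* transcripts, 78.8% also occur in Gm44805, a read-through gene on the same strand, so reads could be split between them. Summed with Gm44805, the level was 82.4, 74.1, 97.6 and 96.8 CPM in Chow and 259, 154, 282 and 151 CPM in HFD. The gap between the groups was wider for the sum, with a log2 change of 1.22 (adjusted p 0.00198, limma-voom), and the share of the sum given to *Apoc2* ran from 34.4% to 85.0% over the 16 libraries.

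*Apoe*, the ligand for remnant uptake and the most abundant of the 10, was also higher on HFD. Its levels were 9201, 9699, 12096 and 10092 CPM in Chow and 13414, 14734, 13016 and 13117 CPM in HFD, without overlap. The log2 change was 0.41 (SE 0.0931, 95% interval 0.21 to 0.60, adjusted p 0.0126), or 1.33-fold, and 0.49 (adjusted p 0.00442) without Chow 3, the highest Chow library. Macrophages also make apolipoprotein E, and of 12 macrophage markers 11 were called higher with HFD, where 13.3% of all genes were. Their summed levels were 94.95 to 97.9 CPM in Chow and 160.1 to 284 CPM in HFD. The part of macrophages in the *Apoe* difference was not tested.

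*Apom*, the carrier of sphingosine-1-phosphate, was lower on HFD. It fell from 116, 148, 107 and 119.8 CPM in Chow to 56.5, 60.8, 60.2 and 69.9 CPM in HFD. No library overlapped, and the HFD mean was 50.4% of the Chow mean. The log2 change was -0.98 (SE 0.133, 95% interval -1.26 to -0.70, adjusted p 0.000592), and leaving out each library gave -1.05 to -0.89 with adjusted p of at most 0.00297.

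*Apoa1*, the main HDL protein, was called lower by a small margin. Its levels were 4792, 5694, 5646 and 5653 CPM in Chow and 4496, 4782, 4913 and 4095 CPM in HFD. Chow 1 lay within the HFD libraries, and the other 3 Chow libraries lay above all of them. The log2 change was -0.25 (SE 0.115, 95% interval -0.50 to -0.01, adjusted p 0.175). The call was lost with edgeR's quasi-likelihood test (adjusted p 0.229 at a p of 0.0663), with upper quartile scaling, at an adjusted p under 0.05, and without Chow 2, Chow 3, Chow 4, HFD 1 or HFD 4, where the change was -0.25 to -0.20. With library totals as the only scaling the value was 0.03 (adjusted p 0.908), where the median of all genes moved to 0.29; against that median *Apoa1* stayed lower.

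Markers of cell types were read beside the diet comparison in saline mice, where 13.3% of all genes were called higher and 12.7% lower. Of 8 hepatocyte markers, 3 were called lower and none higher: *Cps1*, the first enzyme of the urea cycle, at -0.88 (SE 0.208, adjusted p 0.0148), *Serpina1c*, a protease inhibitor, at -0.68 (SE 0.214, adjusted p 0.0581), and *Fga*, a fibrinogen chain, at -0.66 (SE 0.191, adjusted p 0.0393). The sum of the 8, of which albumin (*Alb*) makes up most, was 74854 to 79727 CPM in Chow and 69961 to 81646 CPM in HFD. Of 7 stellate cell markers, 4 were called higher, with sums of 93.5 to 136 CPM in Chow and 153 to 275 CPM in HFD. Under KD, 1 hepatocyte marker (*Fga*) was called lower and 1 stellate cell marker (*Reln*) higher with HFD. These counts are near the 10.1% of all genes called in each direction there, and nothing is read from them. The part of these shifts in the lower *Apom* and *Apoa1*, or in the genes that were higher, was not tested.

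Among the genes not called, *Apob* (the VLDL backbone) had a log2 change of -0.22 (SE 0.127, 95% interval -0.49 to 0.05, adjusted p 0.29). It was called lower without Chow 3 (-0.34, adjusted p 0.0781) and without HFD 4 (-0.29, adjusted p 0.205). *Apoa2*, the second HDL protein, changed by 0.20 (SE 0.112, 95% interval -0.04 to 0.44, adjusted p 0.274), and was called higher without Chow 3 (0.28, adjusted p 0.124), the library with gut markers, and with no filter on low counts (0.20, adjusted p 0.196). For the other 3 the intervals were -0.10 to 0.27 for *Mttp*, -0.11 to 0.32 for *Apoc3* and -0.16 to 0.42 for *Apoa5*, on the log2 scale. With library totals as the only scaling, *Apoa2* (0.48, adjusted p 0.0504), *Apoa5* (0.41, adjusted p 0.0824), *Apoc3* (0.38, adjusted p 0.0541) and *Mttp* (0.37, adjusted p 0.0586) were also called higher, where the median of all genes was 0.29. Over the 16 libraries *Apob* ran from 4613 to 7269 CPM, *Apoc3* from 627 to 969.6 CPM and *Apoa5* from 527 to 922 CPM. Within the chromosome 9 cluster, *Apoa4* thus rose, *Apoa1* was called lower, and *Apoc3* and *Apoa5* were not called.

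**Figure D2:**
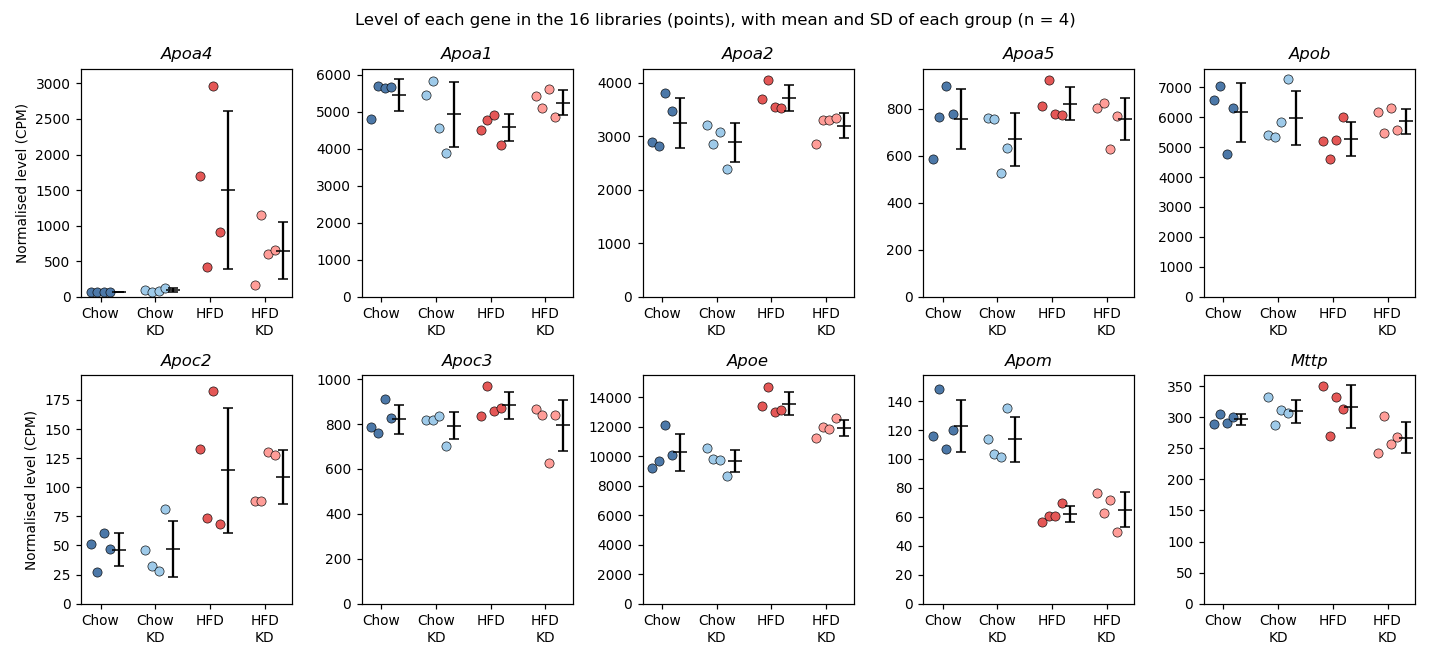
Level (CPM, TMM scaled) of the 10 genes in each of 16 libraries, with points for libraries in replicate order and a bar for the mean ± SD of each group of 4. *Apoa4* is spread from 417 to 2970 CPM on HFD, *Apom* lies at 49.2 to 76.5 CPM in the 8 HFD libraries and above 101 CPM in the 8 chow libraries.

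The same diet contrast was made among KD mice, with libraries that the first did not use. Both contrasts came from the same fit to all 16 libraries, so they share its estimate of the spread and its scaling. Again 5 of the 10 genes were called, with 3 higher and 2 lower, where 20.2% of all genes were called, 10.1% higher and 10.1% lower; 4 did not overlap, as in 11.5% of all genes. *Apoa4*, *Apoc2*, *Apoe* and *Apom* were called in the direction seen in saline mice, and the fifth gene was *Mttp* in place of *Apoa1*.

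*Apoa4* had 101, 71.1, 79.3 and 129 CPM in Chow/FGFR4 KD and 172, 1156, 603 and 652 CPM in HFD/FGFR4 KD. HFD/FGFR4 KD 1 lay just above the highest chow library, Chow/FGFR4 KD 4, and the other 3 HFD/FGFR4 KD libraries lay far above. The log2 change was 2.51 (SE 0.522, 95% interval 1.41 to 3.62, adjusted p 0.0177), or 5.71-fold. Without HFD/FGFR4 KD 1 and Chow/FGFR4 KD 4 it was 3.21 (adjusted p 0.00408). Leaving out single libraries gave 2.14 to 3.05 with adjusted p of at most 0.0673, and with no filter on low counts the adjusted p was 0.172.

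*Apoc2* had 46.2, 32.02, 28.1 and 81.04 CPM in Chow/FGFR4 KD and 88.5, 88.1, 130.1 and 128 CPM in HFD/FGFR4 KD, with Chow/FGFR4 KD 4 just below the HFD libraries. Its log2 change was 1.31 (SE 0.346, 95% interval 0.58 to 2.04, adjusted p 0.0494), and 1.60 without Chow/FGFR4 KD 4. For the sum with Gm44805, in all libraries, the log2 change was 0.98 (adjusted p 0.0176). *Apoe* went from 10534, 9832, 9749.7 and 8688 to 11239, 11978, 11827 and 12603 CPM. The groups of *Apoe* did not overlap, with a log2 change of 0.30 (SE 0.092, 95% interval 0.11 to 0.49, adjusted p 0.0831). Macrophage marker sums were 114 to 155 CPM and 138 to 238 CPM, and 4 of the 12 genes were called higher, where 10.1% of all genes were. *Apom* went from 114, 104, 101 and 135 to 76.5, 62.4, 71.7 and 49.2 CPM, also without overlap, by -0.81 (SE 0.136, 95% interval -1.09 to -0.52, adjusted p 0.00528) on the log2 scale.

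*Mttp* had 332, 288, 312 and 306 CPM in Chow/FGFR4 KD and 243, 301, 257 and 268 CPM in HFD/FGFR4 KD. HFD/FGFR4 KD 2 overlapped the chow libraries and the other 3 lay below them. The log2 change was -0.21 (SE 0.0872, 95% interval -0.40 to -0.03, adjusted p 0.179). This call was lost with library totals and upper quartile scaling, at an adjusted p under 0.05, without each library but Chow/FGFR4 KD 2 and HFD/FGFR4 KD 2, and without HFD/FGFR4 KD 1 and Chow/FGFR4 KD 4 together (-0.17, adjusted p 0.362). *Apoa1*, *Apoa2*, *Apoa5*, *Apob* and *Apoc3* were not called, with log2 changes from -0.02 to 0.19.

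Beside both diet comparisons, genes of the circadian clock also differed. Of 5 tested genes known to peak in the light phase 4 were called higher with HFD in saline mice and 5 under KD. Of all genes, 13.3% and 10.1% were called higher in these comparisons. All 5 of the dark phase were called lower in both, where 12.7% and 10.1% of all genes were. Diet and the clock phase of the livers cannot be told apart.

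**Figure D3:**
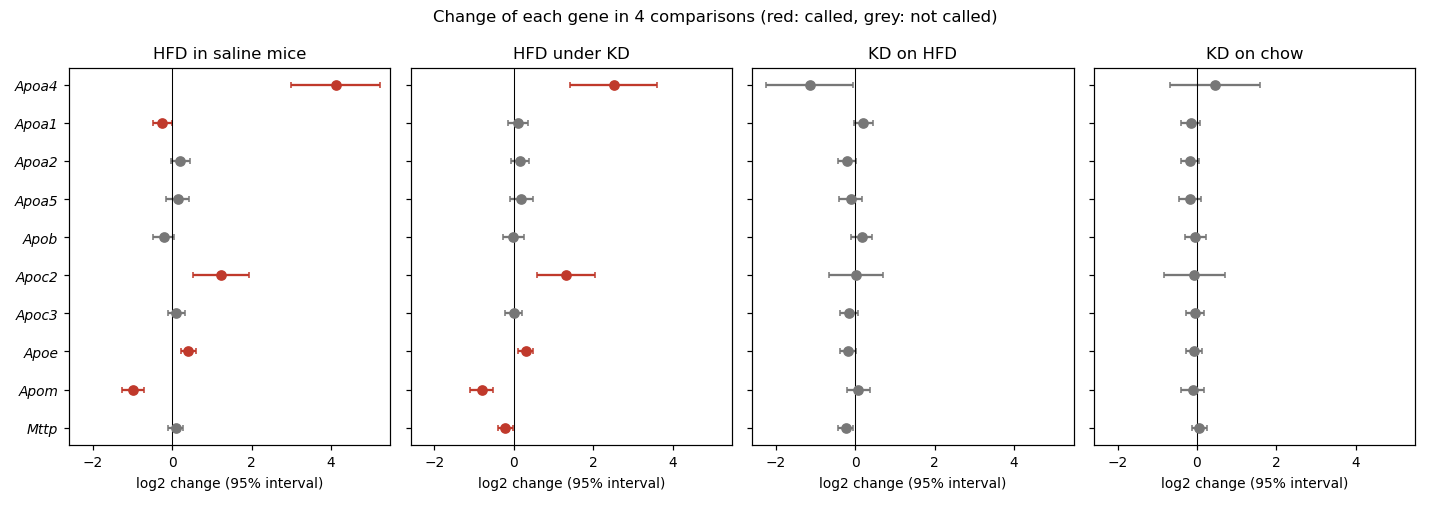
Log2 change of the 10 genes with 95% intervals (limma-voom, 4 libraries a group) for HFD against chow in saline and in KD mice and for KD against saline on HFD and on chow, with called genes in red. *Apoa4* is at 4.12 and 2.51 in the diet panels, and no gene is called in the KD panels.

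The next question is what KD did to these genes on HFD. None of the 10 genes was called in HFD/FGFR4 KD against HFD (limma-voom), where 3.14% of all genes were called. At an unadjusted p under 0.05 were 2 of the 10 genes, beside 1244 of all 11324 genes. DESeq2 and edgeR's quasi-likelihood test also called none of the 10. In 2 genes, *Apoa2* and *Apoe*, the libraries did not overlap, as in 6.49% of all genes, and 6 of the 10 genes had a negative log2 change. Clock genes differed here too, with 3 of 5 dark-phase genes called higher and 1 of 5 light-phase genes lower with KD; the summed level of the former was 51.5 to 76.1 CPM in HFD and 87.9 to 135 CPM in HFD/FGFR4 KD. Their part in the differences with KD on HFD was not tested. The median log2 change of the 10 genes was -0.14, beside 0.00354 over all genes, and the median size was 0.17 beside 0.15.

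*Apoa4* averaged 1499 ± 1114 CPM (SD, n = 4) in HFD and 646 ± 403 CPM in HFD/FGFR4 KD. Of the KD libraries, HFD/FGFR4 KD 2 lay above HFD 2 and HFD 4, HFD/FGFR4 KD 3 and 4 lay above HFD 2, and HFD/FGFR4 KD 1 lay below all HFD libraries. The log2 difference was -1.15 (SE 0.52, 95% interval -2.25 to -0.05, adjusted p 0.429) at an unadjusted p of 0.0414. It was -0.61 (adjusted p 0.768) without HFD/FGFR4 KD 1, and was called at -1.65 (adjusted p 0.145) without HFD 2 and at -1.53 (adjusted p 0.247) without HFD/FGFR4 KD 2. The value thus turned on single libraries.

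*Mttp* had 349.6, 269.6, 333 and 314 CPM in HFD and 243, 301, 257 and 268 CPM in HFD/FGFR4 KD. HFD 2 lay within the KD libraries and HFD/FGFR4 KD 2 above it, and the others were apart. The log2 difference was -0.24 (SE 0.0876, 95% interval -0.43 to -0.06, adjusted p 0.303) at an unadjusted p of 0.0137. It was called with library quality weights (-0.26, adjusted p 0.169) and, as for *Apoa4*, without HFD 2 (-0.32, adjusted p 0.109) or without HFD/FGFR4 KD 2 (-0.30, adjusted p 0.178).

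*Apoa2* had 3696, 4060.4, 3558 and 3534 CPM in HFD and 2853, 3299, 3308 and 3344 CPM in HFD/FGFR4 KD. All KD libraries lay below all HFD libraries, with a log2 difference of -0.21 (SE 0.112, 95% interval -0.45 to 0.02, adjusted p 0.509). *Apoe* had 13414, 14734, 13016 and 13117 CPM in HFD and 11239, 11978, 11827 and 12603 CPM in HFD/FGFR4 KD, again lower in all KD libraries, by -0.19 (SE 0.0936, 95% interval -0.38 to 0.01, adjusted p 0.489) on the log2 scale. Neither passed the test. *Apoa1* differed the other way, at 0.20 (SE 0.115, 95% interval -0.05 to 0.44, adjusted p 0.574), with 5413, 5094, 5618 and 4842 CPM in HFD/FGFR4 KD; 3 of these libraries lay above all HFD libraries and HFD/FGFR4 KD 4 below HFD 3.

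*Apom* had 61.9 ± 5.68 CPM in HFD and 64.97 ± 12.02 CPM in HFD/FGFR4 KD and an interval of -0.22 to 0.36. *Apoc2* had an interval of -0.65 to 0.68 around a log2 difference of 0.02, and the sum with Gm44805 differed by -0.30 (adjusted p 0.617). *Apob*, *Apoc3* and *Apoa5* had log2 differences of 0.16, -0.16 and -0.12, with adjusted p of 0.711, 0.612 and 0.803.

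On chow, KD called none of the 10 genes, where 0.00883% of all genes (1, *Fgfr4*) were called. None of the 10 reached an unadjusted p under 0.05 (limma-voom), beside 519 of all 11324 genes. In none were the libraries apart, where 2.52% of all genes did not overlap. DESeq2 and edgeR also called none of the 10. *Apoa4* was 67.6 ± 4.71 CPM in saline mice and 95.1 ± 25.9 CPM with KD, with a log2 difference of 0.45 (SE 0.537, 95% interval -0.68 to 1.59, adjusted p 0.976). Its highest chow value, 129 CPM, was that of Chow/FGFR4 KD 4, the library with high *Saa2*; without it the difference was 0.30, and that of *Apoc2*, at -0.07 with it, was -0.35 (neither called). The same library was lowest of its group for *Apoa1* (3877 CPM), *Apoa2* (2394 CPM), *Apoc3* (702 CPM) and *Apoe* (8688 CPM), and highest for *Apob* (7269 CPM), *Apoc2* (81.0 CPM) and *Apom* (135 CPM). The other 9 log2 differences ran from -0.18 to 0.06.

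The KD effect on HFD was then set against that on chow, in a contrast of all 4 groups. None of the 10 genes was called (limma-voom), where 0.0353% of all genes were, and DESeq2 and edgeR called none of the 10. At an unadjusted p under 0.05 were 3 of the 10 genes, beside 765 of all 11324 genes. The 3 were *Apoa4*, at -1.60 (SE 0.747, 95% interval -3.18 to -0.02, adjusted p 0.73), *Mttp*, at -0.30 (SE 0.124, adjusted p 0.693), and *Apoa1*, at 0.36 (SE 0.162, adjusted p 0.716). Without HFD/FGFR4 KD 1 and Chow/FGFR4 KD 4 the *Apoa4* value was -0.91 (adjusted p 0.868). The KD and diet comparisons share their groups, so their values stand side by side and are not independent.

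How the 10 genes varied from mouse to mouse within a group was described by Pearson's r over 16 libraries after the group means were taken off the log2 CPM; these values share library depth and scaling and carry no test. The group-free r was 0.90 for *Apoa2* with *Apoe*, -0.89 for *Apob* with *Apoe* and -0.83 for *Apob* with *Apoa2*. *Apob* also had a negative r with *Apoc3* (-0.67), *Apoa5* (-0.58) and *Apoa1* (-0.53), and a positive one with *Apom* (0.69). With *Mttp*, *Apoa4* and *Apoc2* the r of *Apob* was 0.08, 0.05 and 0.03. *Apob* has the longest transcript of the 10 (13934 bases), before *Mttp* (3963), *Apoa5* (2515), *Apoa4* (1815) and *Apoe* (1408). Then follow *Apoa1* (1035), *Apom* (1013), *Apoc2* (727), *Apoc3* (709) and *Apoa2*, the shortest (518 bases). The part of transcript length in these r values was not tested. *Apoa4* and *Mttp* had an r of 0.82 within groups and 0.18 with the group means left in, and both were lowest in the same library of each HFD group, HFD 2 and HFD/FGFR4 KD 1. *Apoa4* and *Apoc2* had 0.58 within groups and 0.84 with the means left in.

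**Figure D4:**
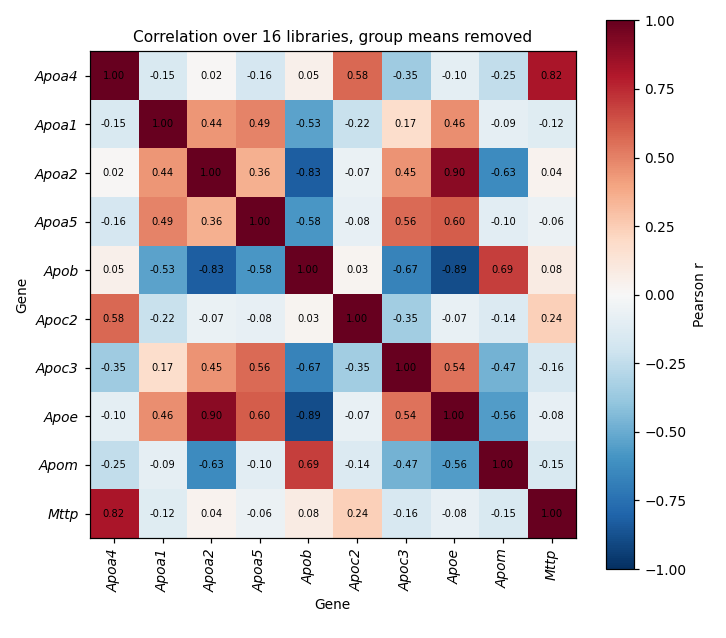
Pearson's r between the 10 genes over 16 libraries, computed on log2 CPM with the mean of each group taken off. Blue cells in the *Apob* row mark its negative r with *Apoe* (-0.89) and *Apoa2* (-0.83), and the *Apoa4* and *Mttp* cell is at 0.82.

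Genes outside the 10 were ordered by how closely their log2 CPM followed *Apoa4*, passing over genes with a predicted or clone name or no symbol. The closest over all 16 libraries were *S1pr2* (a sphingosine-1-phosphate receptor, r 0.97), *Slc16a5* (a monocarboxylate transporter, r 0.97), *Pcx* (pyruvate carboxylase, r 0.97), *Rpa1* (a DNA-binding subunit, r 0.96) and *Fabp4* (a fatty acid-binding protein of fat cells and macrophages, r 0.96). *S1pr2* had 2.29, 2.89, 2.87 and 2.41 CPM in Chow and 7.28, 4.45, 9.68 and 7.54 CPM in HFD, where HFD 2 was lowest and HFD 3 highest, as for *Apoa4*. *Pcx* had 327, 313, 347 and 355 CPM in Chow and 663, 486, 683 and 634 CPM in HFD. All 5 were called higher on HFD in saline mice, by 0.60 (*Rpa1*) to 2.70 (*Slc16a5*) on the log2 scale, and none was called under KD on HFD. They were picked for following *Apoa4* with the group means left in. Their rise with HFD and their order of libraries thus follow from that choice and are no separate result. Beside *Fabp4*, of 5 adipocyte markers *Adipoq*, *Plin1*, *Retn* and *Lep* had at most 4 counts in a library, and *Lep* had 0 in all. The fifth, *Cfd* (adipsin), was the only one tested, and was called higher with HFD in saline mice, at 2.82 (SE 0.722, adjusted p 0.0214), and under KD, at 3.22 (SE 0.955, adjusted p 0.0752), and lower with KD on HFD, at -1.57 (SE 0.502, adjusted p 0.228). The summed level of the 5 was 0.793 to 11.4 CPM in Chow, 10.9 to 24.6 in HFD and 3.82 to 8.63 in HFD/FGFR4 KD, and its part in these values was not tested. With the group means taken off, the closest were *Xpot* (0.95), *Ptgr1* (0.92), *H2-Q10* (0.90), *S1pr2* (0.90) and *Klf6* (0.90). These are the highest of the values over the tested genes that were not passed over, and carry no test. *Ptgr1* was near the floor, at 0.65 to 4.96 CPM. The coefficient of variation of *Apoa4* was 74.3% in HFD and 62.4% in HFD/FGFR4 KD, against 6.97% in Chow and 27.2% in Chow/FGFR4 KD. The HFD libraries thus weigh most in the r values with group means taken off.

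Other genes of lipoprotein metabolism were read from lists chosen by function, where of all genes 26% were called with HFD in saline mice, 20.2% with HFD under KD and 3.14% with KD on HFD. In saline mice the lists had 0 of 10, 8 of 24, 4 of 13, 5 of 9, 7 of 22 and 3 of 8 genes called, and nothing particular to a list is read from these counts. Of 11 further apolipoproteins 10 were tested, and none was called with HFD in saline mice or with KD on either diet; 2 were called higher with HFD under KD. The 24 genes of VLDL assembly and secretion had 4 called higher and 4 lower with HFD in saline mice (median -0.04), with *Sort1*, a sorting receptor for apolipoprotein B, at -1.29 (SE 0.201, adjusted p 0.00143) and *Ces1d*, a lipase that mobilizes stored triglyceride for VLDL, at -0.85 (SE 0.204, adjusted p 0.0155). With KD on HFD, 1 of the 24 was called, *Tmem41b*, a scramblase needed for lipoprotein biogenesis, at 0.40 (SE 0.126, adjusted p 0.227).

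Of 13 genes of HDL formation and plasma remodelling, 1 was called higher and 3 lower with HFD in saline mice. The 2 with the smallest p were *Lipg*, endothelial lipase, at 0.99 (SE 0.165, adjusted p 0.00207), and *Angptl4*, a lipoprotein lipase inhibitor, at -0.80 (SE 0.162, adjusted p 0.0063). With KD on HFD, *Lcat*, the HDL cholesterol esterifying enzyme, rose by 0.29 (SE 0.0925, adjusted p 0.228) and *Angptl8*, a regulator of lipoprotein lipase, by 0.99 (SE 0.316, adjusted p 0.228), and these were the 2 called of 13. Their levels were 228 ± 22.4 (HFD) and 278 ± 18.2 CPM (HFD/FGFR4 KD) for *Lcat*, and 10.8 ± 2.83 and 22.3 ± 8.16 CPM for *Angptl8* (SD, n = 4).

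Among 9 tested lipoprotein receptors, 4 were called higher and 1 lower with HFD in saline mice, led by *Cd36*, a fatty acid and lipoprotein scavenger receptor, at 2.46 (SE 0.48, adjusted p 0.00532), and *Vldlr*, the VLDL receptor, at 2.12 (SE 0.491, adjusted p 0.0137). With KD on HFD, 1 was called: *Lsr*, the lipolysis-stimulated receptor, at 0.51 (SE 0.12, adjusted p 0.0904). Of 22 transcriptional regulators, 4 were called higher and 3 lower with HFD, with *Rora* at -0.59 (SE 0.117, adjusted p 0.00591) and *Ppara*, the fatty acid sensing receptor, at 0.61 (SE 0.137, adjusted p 0.0119), and 1 was called with KD on HFD, *Srebf2*, the regulator of sterol synthesis, at 0.53 (SE 0.143, adjusted p 0.16).

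Lipid droplet genes known to rise with steatosis had 2 called higher and 1 lower of 8 tested with HFD in saline mice, *Plin4* at 1.82 (SE 0.279, adjusted p 0.0013) and *Cidec* at 3.62 (SE 0.977, adjusted p 0.0281) leading. With KD on HFD, the same genes, both coating droplets, were the 2 called lower: *Plin4* at -1.10 (SE 0.25, adjusted p 0.0807) and *Cidec* at -2.29 (SE 0.657, adjusted p 0.185). *Cidec* had 53.02, 14.2, 85.7 and 34.3 CPM in HFD and 2.6, 23.02, 7.64 and 8.55 CPM in HFD/FGFR4 KD. No gene of these 6 lists was called with KD on chow, and the clock genes that differed with KD on HFD stand beside the calls named here.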

How the data were processed

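Liver libraries of 16 mice were analysed. The authors deposited estimated counts per Ensembl gene (expected counts, not always whole), made with kallisto and, according to the methods of the study, tximport. The submitters' processing notes also name fastp and GRCm38; the transcriptome release and strand setting were not given in the sources used here. The labels name a KAPA mRNA kit and the methods HTG EdgeSeq, and this was not resolved. Symbols were found for 98.3% of identifiers.

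As in the study, genes with under 1 CPM in more than 4 libraries were left out, TMM factors were computed (edgeR 4.0.16), and limma-voom (limma 3.58.1, R 4.3.3) was fitted to all 16 libraries with a mean per group. Adjusted p-values are Benjamini-Hochberg over all 11324 genes tested. The code was tested on simulated counts. Precision depends on totals of 3445949 to 5976449 counts and on the spread between the 4 mice of a group. Within groups, 24 pairs of libraries had a chi-square per degree of freedom of 7.59 to 72.6 (7405 genes), so none were duplicates. Shared sequence is the percentage of 31-base words found in transcripts of other genes (GENCODE vM21). Log2 CPM for correlations used a prior count of 2.

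Results were recomputed with the quasi-likelihood test of edgeR, with DESeq2 1.42.0 (counts rounded first), 2 other filters, 3 other scalings, removal of Gm42418 and Lars2, quality weights, separate fits of each pair of groups, the replicate number as a block, an adjusted p under 0.05 and leaving out each library. The 10 genes and all lists were chosen with earlier results of these data known. All 10 genes are named, from other lists at most the 2 called genes with the smallest p in each of HFD in saline mice and KD on HFD, and the 5 genes most like *Apoa4* by each measure. In the search for likeness, genes with a predicted or clone name or no symbol were passed over.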

Additional observations from a re-analysis of the deposited data

Results flagged for a closer look

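Each of the 10 genes was examined in each of the 4 groups for a library far from the other 3, by the gap to its nearest neighbour as a share of the group's range (Dixon's test at 95%). Of the 40 sets of 4 values, 4 were flagged, where chance flags about 1 in 20, which is 2 of 40. *Apoa1* was low in Chow 1, at 4792 CPM, with the other Chow libraries from 5646 to 5694 CPM. *Apoa2* was low in HFD/FGFR4 KD 1, at 2853 CPM, with the other libraries of its group from 3299 to 3344 CPM. *Apoc3* was low in Chow/FGFR4 KD 4, at 702 CPM, below 816 to 838 CPM, and in HFD/FGFR4 KD 3, at 627 CPM, below 839 to 866 CPM. Of these libraries, Chow/FGFR4 KD 4 also stood apart from all others in *Saa2*, and HFD/FGFR4 KD 1 from the rest of its group in Gm42418.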

How the results depend on the processing

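Across 14 other settings and the fits that leave out 1 of 16 libraries, 1170 values of single genes were recomputed. Of these 1124 kept their call and moved by less than 1 SE where not called, 33 changed their call or direction, and 13 uncalled values moved further. The number of the 10 genes called was 0 for KD on HFD and became 1 with library quality weights (*Mttp*), and 0 to 2 when single libraries were left out. With library totals as the only scaling, 8 in place of 5 were called for HFD in saline mice, where 4306 in place of 2939 of all 11324 genes were, and at an adjusted p under 0.05, 3 in place of 5 were called for HFD under KD. *Apoa1* reversed with library totals for HFD in saline mice, to 0.026, a scaling that moved the median of all genes by 0.29 (0.14 for HFD under KD). With it 92.1% of all called genes were higher for HFD in saline mice, in place of 51.2%, 82.8% in place of 50.1% for HFD under KD, and 33.3% in place of 47.8% for KD on HFD; upper quartile scaling gave 61.4% for HFD under KD, and no filter 39.3% for HFD in saline mice. The cause was not tested.

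Counts over all genes moved more. For KD on HFD, 356 calls became 31 at an adjusted p under 0.05, 114 with library totals, 776 with quality weights, 210 without HFD/FGFR4 KD 1 and Chow/FGFR4 KD 4, and 89 to 622 without single libraries (lowest without HFD 3, highest without HFD 2). For HFD in saline mice, 2939 became 1042 at an adjusted p under 0.05 and 5324 with no filter. For HFD under KD, 2293 became 351 at an adjusted p under 0.05 and 1189 without HFD/FGFR4 KD 4. For the difference between the KD effects, 4 became 54 with DESeq2, 0 with library totals (761 at an unadjusted p under 0.05), and 1 to 27 without single libraries. Leaving out HFD/FGFR4 KD 1 with Chow/FGFR4 KD 4, and summing reads of overlapping genes, were added after the data were seen.

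Replicate numbers are shared between groups, and what they stand for was not given. Same-numbered libraries deviated together by r of -0.29 to 0.24, and the main fit used no pairing. Such values cannot show whether same-numbered mice shared more than a number. With the replicate block, 0 of the 10 genes were called for KD on either diet and 5 for HFD in saline mice and under KD, the same genes as without it. With 4 mice a group, intervals of *Apoa4* and *Apoc2* are wide. For KD on chow they ran from -0.68 to 1.59 and from -0.84 to 0.70 on the log2 scale, and differences within these ranges may have been missed.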
